A study of Mus musculus with 10 samples.

Results

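Fat cells lie in the mesentery and the outer layers of the gut, and their transcripts can be read in RNA of a whole gut segment. The genes described here are 8 markers of fat cells: the hormone genes Adipoq, Retn and Lep, the protease gene Cfd, the fatty acid carrier gene Fabp4, the lipase gene Lpl and the lipid droplet genes Plin1 and Cidec. All probe sets that carried exactly 1 gene symbol among these were taken. They numbered 10 of the 34958 probe sets with 1 symbol and covered 6 of the 8 genes, since no probe set was matched to Cfd or Plin1, which are not analysed here. Fabp4 had 4 probe sets, Lpl 2, and Adipoq, Retn, Lep and Cidec 1 each. The markers were chosen on the diet ratios of the gut arrays, which were already known, so every comparison of the diets below is a description with no test.

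Yogurt-fed mice ate AIN-93, a purified rodent diet, with 1 to 2% LB81 yogurt added, and control mice ate AIN-93 alone. All were males of the outbred ICR stock, kept 1 to a cage under specific-pathogen-free conditions, that started the diets at 8 months of age and were killed at 28 months. RNA of 10 yogurt-fed or 9 control mice was pooled in equal amounts for each tissue, and 100 ng of each pool was put on 1 Affymetrix mouse expression array. Distal colon, ileum, jejunum, liver and spleen thus had 1 yogurt array and 1 control array each, making 10 arrays. Differences between single mice cannot be read from pooled RNA.

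White fat cells store triglyceride in a large lipid droplet coated with perilipin and CIDEC. Lipoprotein lipase, bound to the capillary wall, frees fatty acids from circulating lipoproteins, and FABP4 carries them inside the cell. Fat cells also secrete hormones: adiponectin, which raises insulin sensitivity, leptin, which signals the size of fat stores to the brain, and, in mice, resistin, which opposes insulin. Adiponectin is made almost solely by fat cells, whereas Lpl is also expressed by muscle and macrophages, and Fabp4 by capillary endothelium and macrophages.

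The values are log2 expression per probe set as the authors deposited them. The 50th percentile of each array, between 5.42 and 5.50, was used as a floor, and values below it are called not measured. The arrays of a tissue had Spearman correlations of 0.991 to 0.994 between the diets, and the SD of the log2 ratio of yogurt over control over all measured genes was 0.165 to 0.222. The tissue labels were checked with marker genes. Hoxb13 stood at 11.5 and 11.8 in the yogurt and control distal colon and below the floor elsewhere, Fabp6 at 13.8 on both ileal arrays, Lct, the lactase gene, at 9.98 and 10.5 in yogurt and control jejunum, and Alb at 14.4 and 14.3 in yogurt and control liver. The B cell gene Cd79a was at 7.64 and 7.66 in yogurt and control spleen, above its level on the other arrays.

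The RefSeq promoter tables (build GRCm38.p6) held entries for 6 of the 8 markers, all but Fabp4 and Lpl. The 250 bases before the start of the 3 hormone genes are printed 5′ to 3′ to set the promoters of Adipoq and Retn, whose transcripts were measured, beside that of Lep, which was below the floor on every array. Capitals mark matches, on either strand, to the CCAAT box (CCAAT) or to the C/EBP motif TTGCNNAA, bound by factors that drive fat cell differentiation.
Adipoq, chr16:23146286-23146535, plus strand: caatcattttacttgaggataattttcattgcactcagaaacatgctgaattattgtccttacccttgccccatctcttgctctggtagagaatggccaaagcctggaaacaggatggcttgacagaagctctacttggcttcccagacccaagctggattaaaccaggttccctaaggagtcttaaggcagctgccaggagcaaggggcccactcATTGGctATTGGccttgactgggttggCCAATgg
Retn, chr8:3655520-3655769, plus strand: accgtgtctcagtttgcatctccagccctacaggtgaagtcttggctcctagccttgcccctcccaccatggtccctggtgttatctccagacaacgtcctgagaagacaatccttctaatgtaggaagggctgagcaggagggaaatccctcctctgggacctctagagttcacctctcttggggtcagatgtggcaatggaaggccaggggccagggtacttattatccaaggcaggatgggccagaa
Lep, chr6:29059971-29060220, plus strand: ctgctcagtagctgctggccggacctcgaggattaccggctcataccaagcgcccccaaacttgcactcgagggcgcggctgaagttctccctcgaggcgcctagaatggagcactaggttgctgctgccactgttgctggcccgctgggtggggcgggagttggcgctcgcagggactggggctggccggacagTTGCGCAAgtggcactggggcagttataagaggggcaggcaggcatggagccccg

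The Adipoq promoter held 3 CCAAT boxes, all within 34 bases of the start and none overlapping another motif. Of 32851 promoters of the same length, 33.8% held at least 1. The Lep promoter held 1 C/EBP match, 55 to 48 bases before the start, as 9.56% of all promoters held one. The Retn promoter held neither. Of the 7 promoters of the markers, 3 held a C/EBP match, those of Lep, Plin1 and 1 of Cidec. A CCAAT box was held by 1 of the 7, that of Adipoq. The TATA box TATAAA (12.4% of all promoters), the nuclear receptor hexamer AGGTCA (14.0%) and the direct repeat of that hexamer with 1 base between the copies (0.0335%), the element bound by the fat cell regulator PPARG and its relatives, were searched on both strands, and none of the 7 promoters of the markers matched them.

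Adipoq, the adiponectin gene, was measured in the distal colon and ileum and was higher in the yogurt pool in both. In distal colon its log2 level was 7.58 in the yogurt pool, against 5.40 in the control pool, which lay below the floor. The yogurt pool was thus at least 4.25-fold higher, a log2 ratio of at least 2.09. In ileum the log2 levels were 7.37 for yogurt and 5.90 for control, a 2.78-fold difference (log2 ratio 1.48). On the other 6 arrays the deposited value lay between 3.63 and 3.82, under the floor, so Adipoq was measured on 3 of 10 arrays, and both yogurt arrays stood above the control ileum. Adipoq ranked 14 from the top among 12362 genes measured in distal colon and 5 among 12295 in ileum. At a floor of the 65th percentile its log2 ratios were 0.86 in distal colon and 0.73 in ileum. In RNA of a whole tissue, more cells of a type and more RNA per cell cannot be told apart.

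Retn, the resistin gene, was measured in all tissues, and its diet ratio was largest in the same pair of segments. Its log2 levels were 6.98 in the yogurt ileum and 6.15 in the control ileum, a 1.77-fold difference (log2 ratio 0.82). In distal colon they were 6.92 for yogurt and 6.20 for control, a 1.65-fold difference (0.73). In liver they were 6.61 and 6.27 in the yogurt and control pools (0.34), in spleen 6.82 and 6.50 (0.32), and in jejunum 6.21 and 6.32 (-0.11). The 2 highest of the 10 values were those of the yogurt ileum and yogurt distal colon. The whole range of Retn over 5 tissues was small, from 6.15 to 6.98, and the yogurt spleen lay within 0.2 of the top. At a floor of the 65th percentile the ratios of ileum and distal colon were 0.33 and 0.21.

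Lep, the leptin gene, gave no measured value. Its deposited levels ran from 3.64 to 4.20 over the 10 arrays, all below the floor, so no diet ratio is given.

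Fabp4 followed the same division between gut segments with a smaller difference. In ileum its log2 levels were 10.78 for yogurt and 10.11 for control, a 1.60-fold difference (log2 ratio 0.67). In distal colon they were 10.63 for yogurt and 10.02 for control, a 1.53-fold difference (0.62). In jejunum the pools were close, at 10.29 for yogurt and 10.19 for control (0.10). Liver, at 8.75 for yogurt and 8.80 for control (-0.050), and spleen, at 8.51 for yogurt and 8.71 for control (-0.20), lay lower than all 6 gut arrays. The other bright Fabp4 probe set gave 0.76 in ileum, 0.66 in distal colon, 0.34 in jejunum, -0.31 in liver and -0.31 in spleen. The remaining 2 Fabp4 probe sets were below the floor on all 10 arrays.

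Lpl, the lipoprotein lipase gene, differed most in distal colon. Its log2 level there was 9.39 for yogurt and 7.77 for control, a 3.08-fold difference (log2 ratio 1.62). The levels were 9.16 in the yogurt ileum and 8.65 in the control ileum (0.51), and 8.35 in the yogurt jejunum and 8.06 in the control jejunum (0.29). In liver they were 10.17 for yogurt and 9.94 for control (0.23). Spleen went the other way, with 9.71 for yogurt and 10.26 for control (-0.55). The control distal colon was the lowest of the 10 arrays, and the yogurt distal colon stood above both ileal arrays. The dimmer Lpl probe set gave at least 0.98 in distal colon, 0.37 in ileum, 0.29 in jejunum, 0.0086 in liver and -0.70 in spleen.

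Cidec, which makes lipid droplets fuse into larger ones, did not follow the hormone genes. It was brightest in jejunum, at 7.62 for yogurt and 8.05 for control, where Adipoq was not measured. The yogurt pool was lower there (log2 ratio -0.43) and in ileum, at 7.03 for yogurt and 7.28 for control (-0.25). In liver the yogurt array, at 5.34, lay below the floor and the control array at 5.84, so the yogurt pool was at least 1.31-fold lower. In distal colon both arrays were below the floor, at 5.24 for yogurt and 4.37 for control, as they were in spleen.

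**Figure D1:**
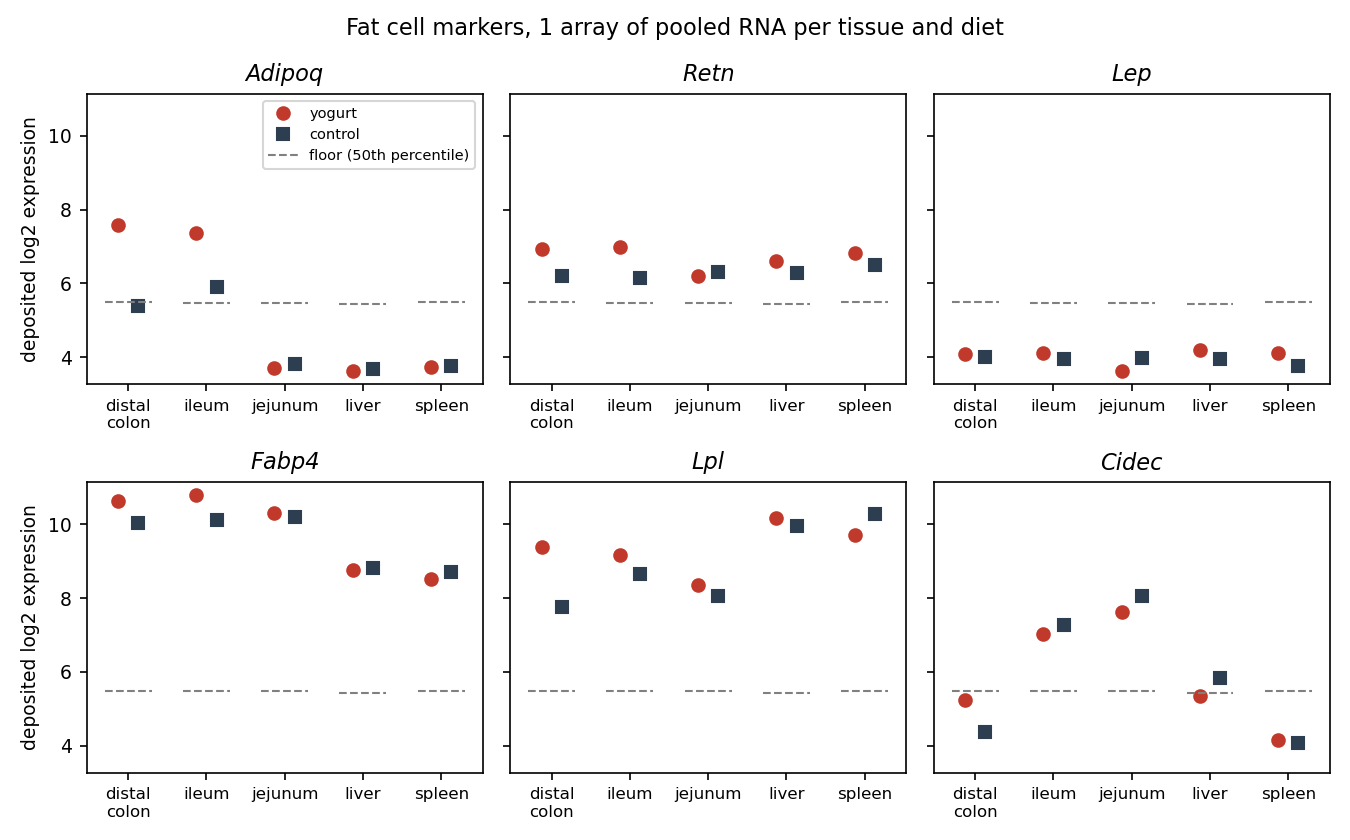
Deposited log2 expression (vertical axis) of the 6 markers with a probe set in each tissue (horizontal axis), 1 array per tissue and diet, with yogurt as circles, control as squares and the floor as dashes. Adipoq stood at 7.58 and 7.37 in the yogurt colon and ileum and under 4 in jejunum, liver and spleen, while Cidec was brightest in jejunum.

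Read together by tissue, the markers were higher in the yogurt pool in distal colon and, apart from Cidec, in ileum. In distal colon 4 markers were measured and 4 were higher, with a median log2 ratio of 1.17 beside -0.014 for all measured genes. Of these, 2 (Adipoq and Lpl) were at least 2-fold higher, where 0.356% of all measured genes were, and 4 were at least 1.5-fold higher, where 0.946% were. In ileum 4 of 5 were higher, with a median of 0.67 beside -0.040. There 1 (Adipoq) passed 2-fold, where 0.0651% of genes did, and 3 passed 1.5-fold, where 0.211% did. The choice of the markers used these ratios, so nothing is read from the shares. In jejunum 2 of 4 were higher, with a median of -0.0055, and none reached 1.5-fold, where 0.636% of genes did, or 2-fold, where 0.326% did. None reached 2-fold in liver, where 0.148% of genes did, or in spleen, where 0.194% did. The medians there were 0.092 over 4 markers in liver and -0.20 over 3 in spleen. The medians of distal colon and ileum were 0.74 and 0.51 at a floor of the 65th percentile, which left 1 marker past 2-fold in distal colon (Lpl) and 0 in ileum.

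**Figure D2:**
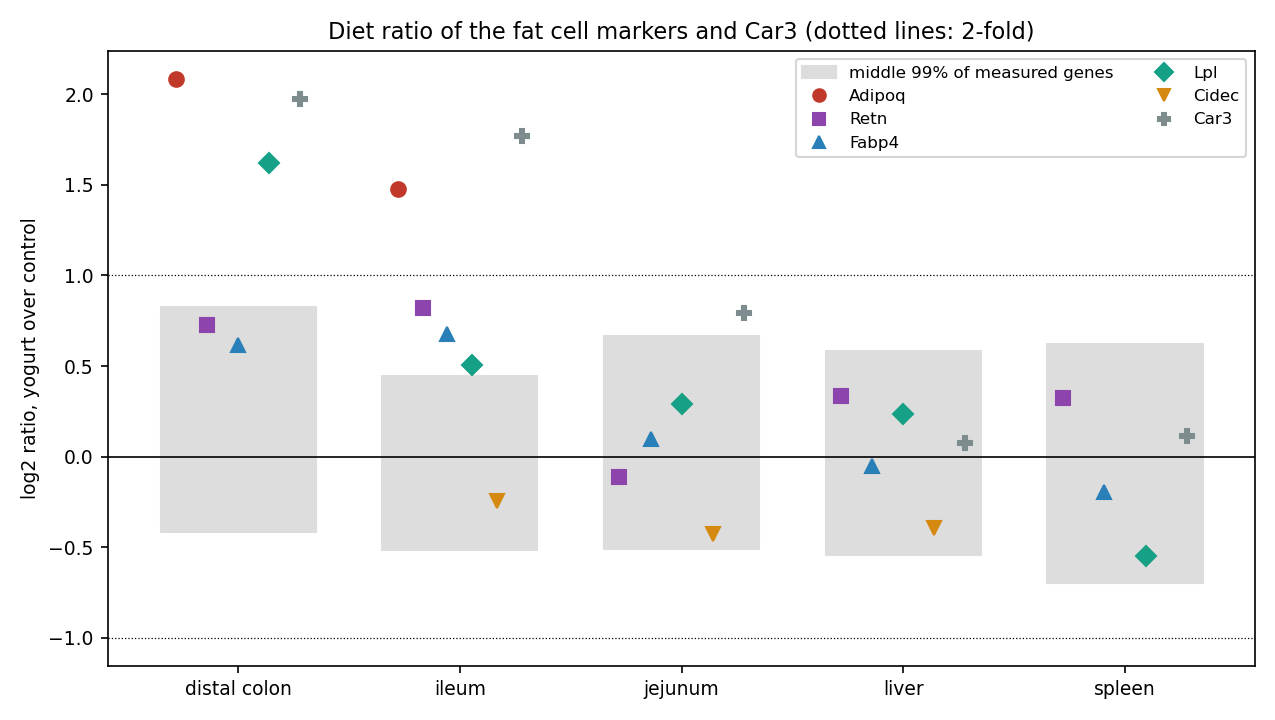
Log2 ratio of yogurt over control (vertical axis) of the measured markers and of Car3, another fat cell gene, in each tissue (horizontal axis), with the middle 99% of all measured genes in grey. Adipoq and Car3 lay above 1 in distal colon and ileum, and Lpl above 1 in distal colon.

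Of 11877 genes measured in both distal colon and ileum, 8 were at least 1.5-fold higher in the yogurt pool of both, and 3 of these were markers: Adipoq, Retn and Fabp4. The other 5, which were looked up after the values were seen, included Car3 and Cyp2e1. Car3 is a carbonic anhydrase abundant in fat cells and liver. Its log2 level was 10.89 in the yogurt colon and 8.91 in the control colon (log2 ratio 1.98), and 10.52 in the yogurt ileum and 8.75 in the control ileum (1.77). In jejunum it was 6.27 in the yogurt pool, against 5.19 in the control pool, which was below the floor, a log2 ratio of at least 0.79. A second Car3 probe set gave 1.79 in distal colon and 1.43 in ileum, and the other 2 were below the floor on the 6 gut arrays. Cyp2e1, a cytochrome of liver that oxidises ethanol, had log2 ratios of 2.05 in distal colon and 1.20 in ileum. The remaining genes were S100a8, a neutrophil calprotectin subunit (1.51 and 0.79), BC018473 (1.40 and 1.55) and the scramblase gene Plscr2 (1.20 and 1.00), given for distal colon and then ileum. In jejunum S100a8 had 1.47, BC018473 1.22 and Plscr2 0.087, and Cyp2e1 was not measured.

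Most other genes listed for fat cells and fat metabolism had ratios near 0 in the segments where Adipoq differed. Some of them were bright in jejunum, where Adipoq was below the floor. There Dgat1 stood at 11.62 and 11.79 and Cideb at 10.87 and 11.11 in the yogurt and control pools, looked up after the values were seen. Which cells gave the signal of these lists was not tested. Of 63 matched genes of fat cells, fat synthesis, lipolysis, adipogenic regulation and brown fat, 13 lay at or below the floor on all 6 gut arrays. Car3 alone was at least 1.5-fold higher in the yogurt pool of both distal colon and ileum. Of all 11877 genes measured in both segments, 8 were. Of the 16 other fat cell genes, 9 were measured in distal colon and 10 in ileum, and their medians were 0.010 and -0.0026. The fat synthesis list had 15 measured genes in each segment and medians of -0.0062 in distal colon and -0.072 in ileum. In distal colon 7 were higher and 8 lower in the yogurt pool, and in ileum 6 were higher and 9 lower. Its member Thrsp, a regulator of lipogenesis, was higher in the yogurt ileum, at 6.81 against 5.96 in the control ileum (log2 ratio 0.84), with 0.34 in distal colon. A second Thrsp probe set gave 0.52 in ileum and 0.039 in distal colon, and the third was below the floor. Pck1, which feeds glycerol synthesis in fat cells and gluconeogenesis in liver, was lower in the yogurt ileum, at 8.19 against 8.88 in the control ileum (-0.69). A dimmer Pck1 probe set gave -0.055 in ileum, a bound since its yogurt array lay below the floor, and the third was below the floor there. Scd1 and Elovl6 of the same list, looked up after the values were seen, had 0.35 and 0.44 in distal colon and 0.43 and -0.16 in ileum.

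The lipolysis and droplet list had a median of 0.0034 over 11 genes in distal colon and -0.16 over 12 in ileum, and 0 of them passed 1.5-fold in either direction there. In distal colon 6 were higher and 5 lower in the yogurt pool, and in ileum 3 were higher and 9 lower. The values of the next genes were looked up after the data were seen. Lipe, the hormone-sensitive lipase gene, had log2 ratios of -0.30 in distal colon, a bound since the yogurt array lay below the floor, and -0.28 in ileum. The droplet coat gene Plin4 had -0.23 in distal colon and 0.26 in ileum. Pparg, the master regulator of fat cell formation, had 0.049 in distal colon and -0.41 in ileum, and the adipogenic regulators had medians of -0.18 over 7 genes and -0.058 over 7. The fat cell genes Adig, Trarg1, Nnat and Slc7a10 and the brown fat genes Ucp1, Cidea, Dio2 and Otop1 were below the floor on all 10 arrays. The measured brown fat genes, 4 in each of these segments, had medians of -0.026 in distal colon and -0.065 in ileum.

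Receptors and partners of the marker proteins showed smaller ratios. The receptors and binding partners of adiponectin, leptin, insulin and resistin, 6 genes all measured in the 3 gut segments, had ratios between -0.20 and 0.26 there. Of 9 matched partners of lipoprotein lipase, 7 were measured in distal colon, with a median of 0.0053, and 9 in ileum, with a median of 0.040. Among them the fatty acid transporter Cd36 had 0.41 in distal colon and 0.23 in ileum. Angptl4, an inhibitor of the lipase, had -0.022 in distal colon and -0.57 in ileum, both looked up after the values were seen. Genes of the alternative complement pathway, in which the product of Cfd acts, had medians of -0.042 over 4 genes in distal colon and -0.032 over 4 in ileum.

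**Figure D3:**
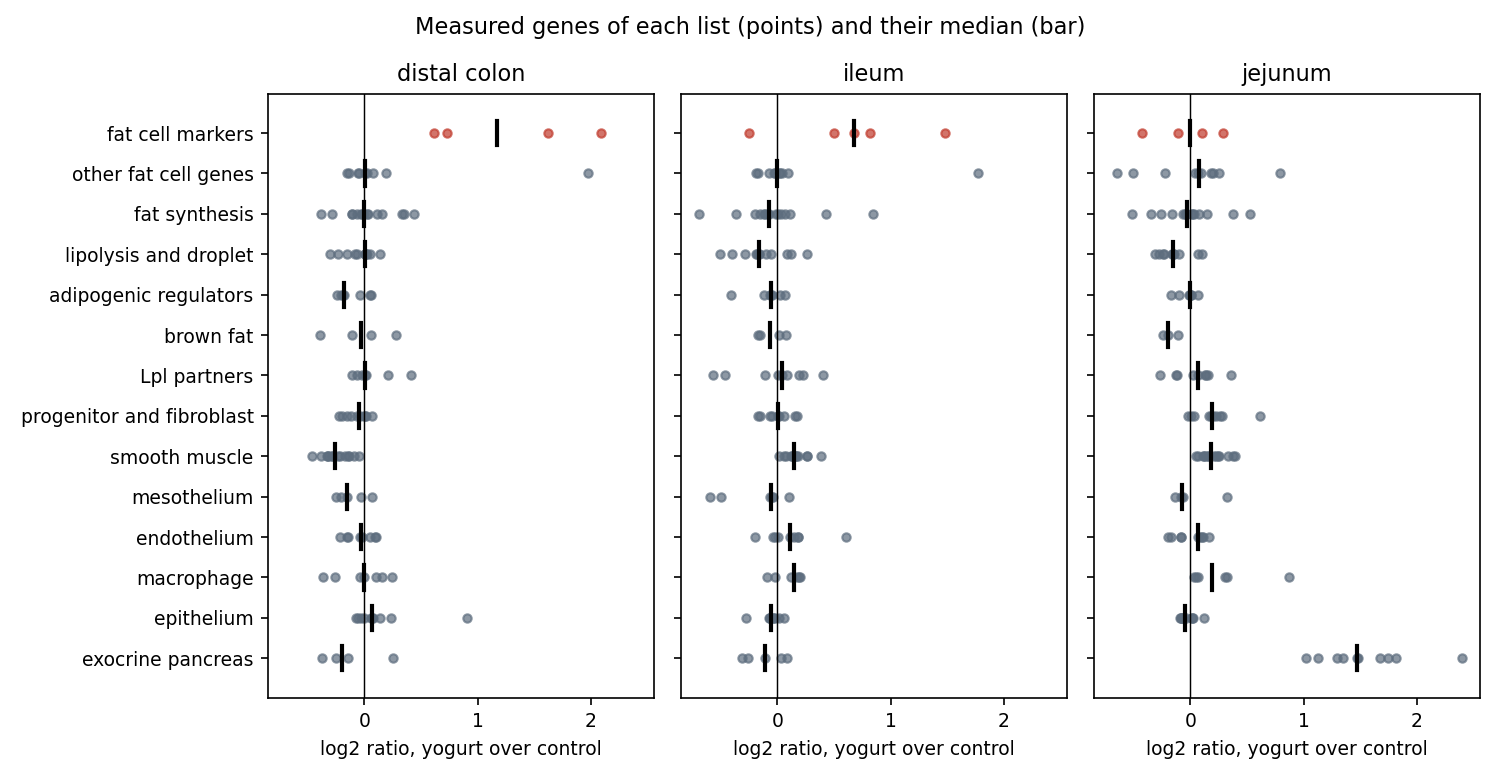
Log2 ratio of yogurt over control (horizontal axes) of the measured genes of each list (rows) in distal colon, ileum and jejunum, 1 point per gene, with the median as a bar. The fat cell markers had medians of 1.17 and 0.67 in distal colon and ileum, the other fat cell lists lay near 0, and the exocrine pancreas list stood at 1.47 in jejunum.

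Markers of other cells of the gut wall also differed between the diets on these arrays. All 14 smooth muscle genes were lower in the yogurt distal colon (median -0.26, from -0.46 to -0.044), and all 14 were higher in the yogurt ileum (0.15, from 0.018 to 0.38). In jejunum, where the fat cell markers had a median of -0.0055, all 14 were also higher in the yogurt pool (0.18). The log2 of the summed smooth muscle signal was 15.56 in the yogurt colon and 15.76 in the control colon, and 15.17 in the yogurt ileum and 15.01 in the control ileum. Mesothelial genes, of the outer lining of the gut, had medians of -0.16 over 5 genes in distal colon and -0.054 over 6 in ileum. Their member Upk3b was lower in the yogurt ileum, at 6.02 against 6.62 in the control ileum (-0.59), and its other probe set gave -0.91. In distal colon the genes measured were the keratins Krt8, which is also in the epithelial list, and Krt18, with Cpe, Gpm6a and Nkain4, while Msln, Upk3b, Lrrn4, Wt1 and Bnc1 were below the floor there. Msln and Bnc1 were below it on every array. Fibroblast and fat progenitor genes had medians of -0.051 over 10 genes in distal colon and 0.0081 over 9 in ileum.

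Endothelial genes had medians of -0.032 over 8 genes in distal colon and 0.12 over 9 in ileum, with Cdh5, an adhesion protein of vessels, at 0.61 in ileum. Macrophage genes had medians of -0.0060 over 7 genes and 0.15 over 6. Epithelial genes had medians of 0.064 and -0.051 over 10 genes each, with the intestinal regulator Cdx2 at 0.91 in distal colon and its other probe set at 0.41. Exocrine pancreas genes had medians of -0.19 over 4 genes in distal colon and -0.11 over 5 in ileum, against 1.47 over 10 in jejunum. In jejunum 10 of 10 were at least 2-fold higher in the yogurt pool, among them Cuzd1 (2.40), Pnliprp1 (1.82), Gp2 (1.74) and Cel (1.68), while Adipoq was below the floor on both arrays. The jejunal arrays also differed in Lum, a matrix protein (0.61), Cd163, a macrophage receptor (at least 0.87), and Nrg4, a growth factor (-0.64). The other Nrg4 probe set gave -0.17 there. The ileal bile acid carrier gene Fabp6 was at 8.05 in the yogurt colon and 7.47 in the control colon (0.58). The part of any of these genes' cells in the marker ratios was not tested.

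The markers were chosen on diet ratios in the gut, and the arrays behind those ratios also enter the tissue means. Tests between tissues are thus not independent of that choice. Levels were tested with limma over all 10 arrays, with diet as a term. Genes above the floor on at least 2 arrays were tested, 13599 in all, and a gene was called where it differed at least 2-fold with p under 0.05 after Benjamini-Hochberg adjustment. All markers with a probe set except Lep passed this filter, and the fit left 4 residual degrees of freedom. Low values were set to the floor first, so SEs of genes at the floor can be too small. The tissues came from the same mice, so each p reflects how unevenly the diets differed across tissues and says nothing of variation among mice.

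Among gut segments Cidec was the marker that was called. It was lower in distal colon, at the floor, 5.49, than in jejunum, at a mean of 7.84 over the 2 diets by a log2 difference of -2.35, and than in ileum, at 7.16, by -1.67. Both colon arrays were set to the floor, so these differences are bounds. Cidec passed the filter through ileum, jejunum and the control liver, where it was high, and no p is given for it against colon. Ileum lay below jejunum, both measured, by less than 2-fold (-0.68 ± 0.12 SE, limma adjusted p = 0.00425). That p depends on the floor, since the fit takes its spread also from the arrays set to it. At a floor of the 35th percentile the SE was 0.22 (limma adjusted p = 0.0461). Without a floor it was 0.27 (limma adjusted p = 0.0852). The call against ileum was lost at a floor of the 65th percentile, at a log2 difference of -0.44. The shares of all genes called higher and lower were 7.65% and 4.52% in distal colon against jejunum, 4.88% and 3.99% in distal colon against ileum, and 2.68% and 2.26% in ileum against jejunum.

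Adipoq is described between gut segments without a test. Both jejunal arrays and the control colon were set to the floor, and the gene passed the filter through colon and ileum alone, so its differences depend on where the floor lies. The log2 difference was 1.06 for distal colon over jejunum and 1.16 for ileum over jejunum. With both jejunal arrays at the floor, the second is a lower bound and no p is given for either. At a floor of the 35th percentile the differences were 1.77 and 1.92. Without the control distal colon array they were 1.91 and 1.16, and without the yogurt distal colon array 0.20 and 1.16. Ileum over jejunum was 0.68 without the yogurt ileum array and 1.63 without the control ileum array. The differences thus moved with single arrays. Lpl, Fabp4 and Retn were not called between segments. For Lpl the arrays overlapped, with a mean of 8.90 in ileum, 8.58 in distal colon and 8.21 in jejunum. Without the control distal colon array Lpl was 1.12 higher in distal colon than in jejunum. Without the yogurt distal colon array it was lower in distal colon than in jejunum (-0.38) and ileum (-1.08).

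Fabp4 and Lpl were called in liver and spleen against the gut, as was Cidec, with arrays at the floor. Fabp4 averaged 8.78 in liver and 8.61 in spleen, against 10.34 over the 3 gut segments, with differences of -1.56 ± 0.17 for liver (SE, limma adjusted p = 5.89e-05) and -1.73 ± 0.17 for spleen (limma adjusted p = 2.92e-05). Lpl ran the other way, at 10.06 in liver and 9.99 in spleen, against 8.56 in the gut, with differences of 1.495 ± 0.33 for liver (limma adjusted p = 0.00359) and 1.43 ± 0.33 for spleen (limma adjusted p = 0.00449). The 2 arrays of liver lay within the range of the spleen arrays for Lpl, so the order of these tissues is not separated. The Lpl call was lost without the control liver array in liver (1.38, limma adjusted p = 0.0625) and without the control spleen array in spleen (0.82, limma adjusted p = 0.0917). Cidec lay lower in liver (-1.18) and spleen (-1.34) than in the gut, with the yogurt liver, both spleen and both colon arrays set to the floor. Its calls in these tissues depend on the floor and are not read as tests. They were lost at a floor of the 65th percentile (-0.73 and -0.69).

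Thus 1 of 5 tested markers was called higher and 2 lower in liver, where 10.5% and 15.7% of all genes were, and the same numbers held in spleen, where 10.9% and 17.2% were. The 2 lower markers were Fabp4 and Cidec, and the Cidec calls rest on arrays set to the floor. The mean of all Fabp4 probe sets, of which 2 were below the floor, put Fabp4 under 2-fold in both tissues (-0.79 in liver and -0.97 in spleen). Adipoq differed from the gut by -0.78 in liver and -0.73 in spleen. All liver and spleen arrays were set to the floor, so no p is given. At a floor of the 35th percentile the differences were -1.22 in liver and -1.18 in spleen. They were -1.07 and -1.01 without the control distal colon array, and -0.50 and -0.44 without the yogurt distal colon array. Retn differed from the gut by -0.022 ± 0.17 in liver (limma adjusted p = 0.909) and 0.20 ± 0.17 in spleen (limma adjusted p = 0.311). Among the lists, 6 of 9 lipase partners and 10 of 15 fat synthesis genes were called higher in liver than in the gut, and 6 of 12 tested other fat cell genes were.

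**Figure D4:**
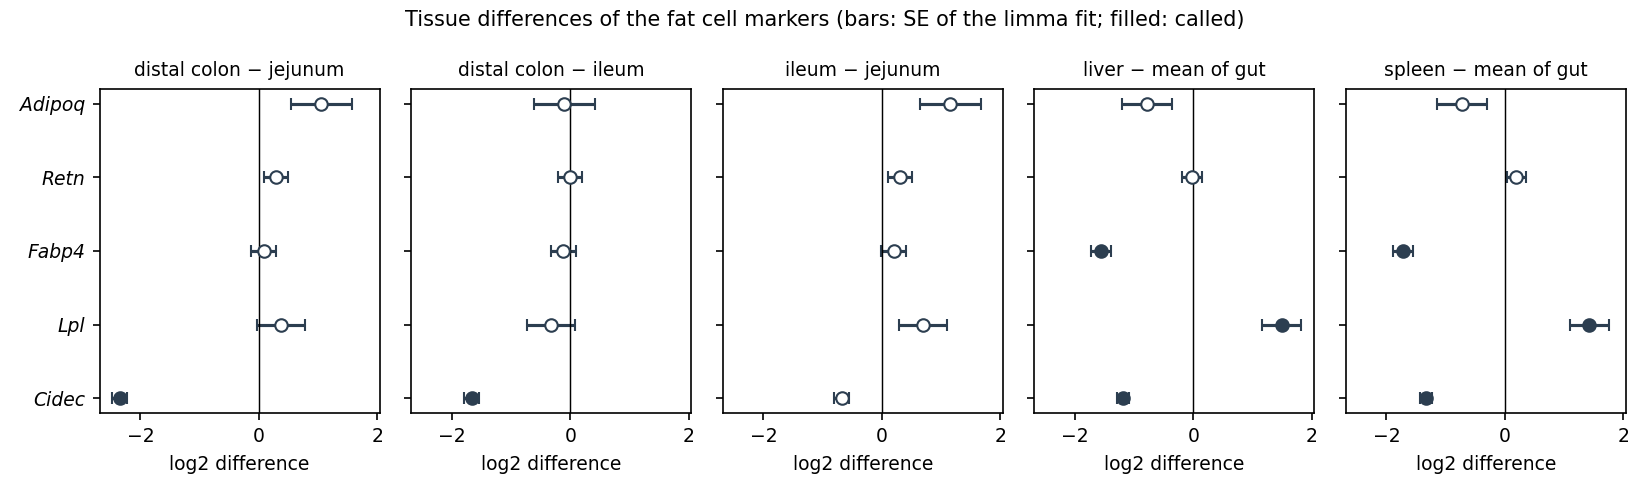
Log2 difference between tissues (horizontal axes) of the 5 markers tested (rows), with the SE of the limma fit as bars and called differences filled. Bars and filling of Adipoq and Cidec depend on arrays set to the floor. Fabp4 lay at -1.56 in liver and -1.73 in spleen relative to the gut, Lpl at 1.495 and 1.43, and Cidec at -2.35 in distal colon relative to jejunum, a bound since both colon arrays were below the floor.

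The measured markers did not share 1 pattern over the 10 arrays, although all serve as fat cell markers. Over 10 arrays Pearson's r with Adipoq was 0.65 for Fabp4, 0.035 for Lpl and 0.0030 for Cidec, and that of Fabp4 with Lpl was -0.68. These arrays share mice and tissues, and the values are given as a description. Lpl was highest in spleen and liver and Cidec in jejunum, where Adipoq was below the floor. Retn was measured in every tissue, but it was highest in the yogurt ileum and yogurt distal colon, as was Adipoq. It ranged over less than 1 log2 unit, and no r is given for it. Adipoq alone was confined, among the measured markers and at this floor, to distal colon and ileum. The mean z-score of Adipoq, Fabp4, Lpl and Cidec, which range over at least 1 log2 unit, was most like Hoxa3 (r = 0.86), Reg3b (0.85), Ang4 (0.82), Zdhhc21 (0.80), Clca3a2 (0.79), Isx (0.79), B4galnt2 (0.78), Car12 (0.78), Hoxb3 (0.78) and Dpep1 (0.78) among 8409 genes. That mean followed Adipoq (0.85) and Fabp4 (0.78) more than Cidec (0.49), and not Lpl (-0.13). A search for each marker, added after the values were seen, gave 1810065E05Rik (0.81), Gfpt2 (0.80) and Boc (0.80) as the genes most like Adipoq. Those most like Cidec were Mfsd4b2, Btnl2 and Tm4sf5 (0.99 each), those most like Fabp4 were Smad7, Gm3336 and Ptprn2 (0.98 each), and those most like Lpl were Zwint (0.92), Akr1c18 (0.91) and Irgm1 (0.89).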

How the data were processed

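The authors deposited log2 expression values for 45101 probe sets on each of 10 arrays, 64 of them array controls. MAS5 and affy are named in the submitters' processing notes, while the summary method and scaling are not given in the sources used here. Deposited values were used unchanged, and the number of arrays limits the precision. Probe sets were named from the platform annotation and, by gene number, RefSeq symbols (GRCm38.p6). Of 34958 with 1 symbol, 34754 matched by number, 932 had several and were left out, and 9211 are unnamed here. Each of 18194 genes was represented by its probe set with the highest mean.

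Each array's 50th percentile served as a floor to which lower values were set, and yogurt over control log2 ratios were taken where at least 1 of 2 arrays lay above it. A ratio against the floor is a lower bound. With 1 array per diet no p is given for diet. Tissues were compared with limma 3.58.1 (lmFit, eBayes with trend) in R 4.3.3, tested on simulated data. The samples of a tissue were grouped by its label and the 2 diets served as replicates.

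The markers and 16 other lists (178 genes, 166 matched) were chosen with earlier results of these data known. Named were all marker probe sets, up to 4 genes per list and gut segment that differed at least 1.5-fold, and the 10 genes most like the markers' mean. Alternatives were other floors, no floor, a pseudocount of 32, centring, quantile normalization, the mean of probe sets, fits without diet or trend, gut arrays alone and leaving out each array. Cfd and Plin1 are not analysed here.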

Additional observations from a re-analysis of the deposited data

Results flagged for a closer look

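Car1, a carbonic anhydrase of colonocytes and red cells that was used to check the tissue labels, went in opposite directions in neighbouring segments. Its log2 level was 12.71 in the yogurt distal colon and 11.39 in the control distal colon (log2 ratio 1.32), and 7.54 in the yogurt ileum and 8.81 in the control ileum (-1.27). The difference between the segments was not tested, since each has 1 array per diet. By the mean of its probe sets Lpl had 1.35 in distal colon and -0.62 in spleen, and this difference was not tested either.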

How the results depend on the processing

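Counts of markers at least 2-fold higher in the yogurt pool moved with the floor: at the 65th percentile 1 remained in distal colon and 0 in ileum. The median log2 ratio was 0.73 in distal colon at a floor of the 35th percentile, where Cidec was measured too, and 0.74 in distal colon and 0.51 in ileum at the 65th. It was 0.50 in ileum with the mean of all probe sets. Counts of markers called between tissues also moved. The number higher in distal colon than in jejunum was 1 at a floor of the 35th percentile and 1 without a floor, and ran from 0 to 2 over the fits that left out 1 array. The number higher in ileum than in jejunum was 1 with each of these floors and ran from 0 to 1. The number lower in distal colon than in ileum was 0 at the 65th percentile and ran from 1 to 2. The numbers lower in liver and in spleen than in the gut were 1 each at the 65th percentile and 1 each with the mean of all probe sets. The numbers higher in liver and in spleen ran from 0 to 1 over the fits that left out 1 array. The Adipoq calls among these rest on values at or below the floor and are no test of its level. Where the text gives no reason, the cause was not tested. None of the settings run turned a called value round. Fits without the diet term, without the trend, on gut arrays alone and after quantile normalization left every count within 1.5 times. No analysis paired by mouse was possible because the RNA of the mice was pooled and each tissue has 1 array per diet. Between tissues the diet term already ties the arrays of 1 mouse group. Levels near the floor, as those of Adipoq in the control arrays, limit the folds.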
